A study of Mus musculus with 4 samples.

Results

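The core autophagy genes are 10 genes whose products start an autophagosome and attach the ubiquitin-like protein LC3 to its membrane. They are a fixed list of symbols, and all 10 were found once among the 32285 genes counted in each library. Leukocytes came from left lungs of B6 mice grafted into B6 recipients. Before implantation every graft spent 60 min at 4 °C and a further 45 min at 28 °C, and it was taken out 2 h after blood flow returned. All groups shared that strain, storage and interval, and the sources used here give no ages. Just before surgery the recipients were injected by vein with vehicle or with 200 ng of RvD1 in 200 µL of 1% ethanol. RvD1, or resolvin D1, derives from an omega-3 fatty acid and is known for promoting the resolution of inflammation. CD45+ leukocytes of the donor and of the recipient were sequenced apart, giving 4 groups of 1 library each (donor cells with vehicle, donor cells with RvD1, and recipient cells with either), with the grafts of 2 mice pooled in every library.

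Autophagy encloses cytoplasm in a double membrane and delivers it to lysosomes. The kinase ULK1 and its scaffold FIP200 (gene Rb1cc1) start the process. ATG4 proteases trim LC3 (gene Map1lc3b), ATG7 activates it, ATG3 carries it, and the complex of ATG5 and ATG12 with ATG16L1 places it on the membrane, from which ATG4 proteases can remove it again. In neutrophils and macrophages, parts of the same machinery also act in granule release, in uptake of particles and in restraint of inflammation. Transcript counts do not measure autophagic flux.

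The 4 libraries held 5195 to 7836 barcodes and 42199775 to 61294707 unique molecular identifiers (UMIs, each counting 1 captured transcript), and 5024 to 7345 cells were used. The headers of both RvD1 matrices name Cell Ranger 7.0.1, those of both vehicle matrices version 6.1.1. Treatment and software version therefore cannot be told apart in any ratio of RvD1 to vehicle, whereas ratios of recipient to donor cells and of classes within a library lie within 1 version. With 1 library per group there was no replicate of any group, no test was made, and every interval below covers counting error only. The labels leave unsaid how the origins were told apart, and whether 1 set of grafts gave both the donor and the recipient cells of a treatment. A difference seen in both origins may therefore rest on 1 pool of grafts per treatment. Between 22 and 39 of the cells used per library carried a barcode also found in another library. Cells were grouped into classes named from marker genes, so that "neutrophils" stands for neutrophil-like cells and so on. Neutrophils numbered 1414 in the vehicle donor library and 1900 in its RvD1 counterpart, and among recipient cells 3338 with vehicle and 3038 with RvD1. The dendritic cell class (284 vehicle donor and 160 RvD1 donor cells) was also led by the macrophage genes C1qa and C1qb. An endothelial class of 400 cells had low CD45 transcript (Ptprc, 59.7 to 168 CPM, against 1226 to 1464 CPM in neutrophils), although the sort was for CD45. CPM is a gene's UMIs in a class of a library, scaled to 1000000 UMIs of that class. Because counting was from the transcripts' 3' ends, levels were compared between classes and libraries of 1 gene and not between genes.

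The starts of 3 members are shown because the results turn on them: Atg4c and Atg4b, which encode proteases of 1 family but behaved differently, and Atg3, which has a neighbour with a like pattern. The sequences run 5′ to 3′ from 250 bases before to 50 bases after a transcription start (RefSeq, GRCm38.p6), all on the + strand, and capitals mark CACGTG, the E-box bound by the MiT/TFE factors that are known regulators of lysosomal and autophagy genes. The Atg4b window belongs to a start 3405 bases downstream of the gene's annotated start, and it also covers the start of Thap4 on the opposite strand. The windows are chr4:99193684-99193983 for Atg4c, chr1:93754655-93754954 for Atg4b and chr16:45158579-45158878 for Atg3.
Atg4c: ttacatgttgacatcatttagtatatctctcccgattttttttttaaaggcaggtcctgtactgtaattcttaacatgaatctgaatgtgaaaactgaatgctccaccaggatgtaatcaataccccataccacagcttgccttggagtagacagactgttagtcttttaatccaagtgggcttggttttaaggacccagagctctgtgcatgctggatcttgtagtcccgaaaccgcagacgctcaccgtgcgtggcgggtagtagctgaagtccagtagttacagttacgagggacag
Atg4b: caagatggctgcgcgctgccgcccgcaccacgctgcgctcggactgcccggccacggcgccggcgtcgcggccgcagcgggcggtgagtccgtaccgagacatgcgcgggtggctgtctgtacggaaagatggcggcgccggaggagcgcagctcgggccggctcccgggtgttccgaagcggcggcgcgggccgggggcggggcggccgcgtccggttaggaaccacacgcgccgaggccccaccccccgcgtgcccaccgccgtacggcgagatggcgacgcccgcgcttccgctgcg
Atg3: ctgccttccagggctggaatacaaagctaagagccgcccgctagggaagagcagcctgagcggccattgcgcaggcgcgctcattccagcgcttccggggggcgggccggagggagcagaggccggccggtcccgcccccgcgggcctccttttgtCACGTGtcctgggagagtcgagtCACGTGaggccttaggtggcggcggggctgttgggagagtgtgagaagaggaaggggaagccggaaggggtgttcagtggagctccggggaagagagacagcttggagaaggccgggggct

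Windows were found for 8 of the 10 members. Both strands were searched for CACGTG, for TGANTCA (bound by AP-1), CCGGAAGT (bound by ETS factors) and TGACGTCA (bound by CREB-type factors). Of the 32851 windows in the table, 7.15% held CACGTG, 7.808% TGANTCA, 3.887% CCGGAAGT and 1.79% TGACGTCA. Atg3 held CACGTG at 94 and 71 bases before its start (counted as -94 and -71), Atg5 held it at -14, and Atg7 at -132 from a start that lies 27999 bases downstream of its annotated one. TGACGTCA was found at -1 in Atg5 and at -18 in Atg16l2. None of the 4 motifs was found in the windows of Atg4b, Ulk1 and Map1lc3b or in either of the 2 windows of Atg4c. A second Atg4c start, with the window chr4:99193897-99194196, had 64.7% G and C against 44.7% in the window shown. These matches describe letters and not binding.

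The members lie on 8 mouse chromosomes (GENCODE M21, GRCm38, the same assembly as mm10). Atg4c (ENSMUSG00000028550) spans chr4:99193934-99259787 on the + strand and overlaps no other annotated gene. Atg4b (ENSMUSG00000026280, chr1:93751500-93790610, + strand) overlaps Thap4 on the opposite strand, and Atg16l2 (ENSMUSG00000047767, chr7:101263034-101302251, - strand) likewise overlaps Fchsd2. Rb1cc1 (ENSMUSG00000025907, chr1:6206197-6276648, + strand) contains an antisense gene, and Map1lc3b (ENSMUSG00000031812, chr8:121590361-121598760, + strand) meets Zcchc14 on the opposite strand at its end. Map1lc3b also lies within Gm20388, a long gene model on the same strand. The sources used here do not say how the authors' counting treated strand and overlaps, so reads of these pairs may not be fully separated. Spans ran from 8400 bases for Map1lc3b to 217518 bases for Atg7 (ENSMUSG00000030314, chr6:114643097-114860614, + strand).

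Atg4c, which encodes a protease of the LC3 family, was the member that differed most between the RvD1 and vehicle libraries. Its level in neutrophils was 45.8 CPM (95% Poisson interval 41.3 to 50.7, 372 UMIs) in vehicle donor and 48.6 CPM (45.5 to 51.8, 933 UMIs) in vehicle recipient cells. It was 5.81 CPM (4.41 to 7.51, 58 UMIs) in RvD1 donor and 7.03 CPM (5.76 to 8.49, 107 UMIs) in RvD1 recipient cells. Both RvD1 libraries thus lay far below both vehicle libraries, and donor and recipient cells of a treatment had overlapping intervals. The Atg4c level with RvD1 was 7.88-fold lower (5.96 to 10.6) in donor and 6.91-fold lower (5.65 to 8.52) in recipient neutrophils, log2 ratios of -2.98 and -2.79 (-3.40 to -2.58 and -3.09 to -2.50). Ordered from the lowest ratio, Atg4c ranked 6 among 6531 genes described in donor neutrophils (at least 100 UMIs over both libraries) and 22 among 7698 in recipient neutrophils.

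Of the 10 members, Atg4c alone was at least 1.5-fold lower with RvD1 in neutrophils of both origins, and 0 members were that much higher. Among the 6511 genes described in both, 9.34% were lower and 4.87% higher by the same rule, so a count of 1 in 10 is near the background and the result lies in its size. At 2-fold in both origins the count was again 1 of 10 against 3.93% of genes. The median log2 ratio of the members was -0.16 in donor and -0.10 in recipient neutrophils, beside 0.02 and 0.12 over all genes described.

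Neutrophils fell into 7 clusters, formed without the members among the variable genes, and these were filled unequally. Clusters 4 and 7 (leading genes Sh2d3c and Cc2d2b) held 66.0% of donor and 49.0% of recipient neutrophils with vehicle, but 13.4% and 4.02% with RvD1. Clusters 2 and 5, led by Ptgs2 and by the chemokine gene Cxcl3, held 13.3% and 13.5% with vehicle and 56.3% and 50.4% with RvD1. The Atg4c level was highest in clusters 4 and 7 of the vehicle libraries, at 54.7 to 80.7 CPM, and 15.3 to 48.9 CPM in their other clusters. In donor and recipient cells alike, each of the 7 clusters had less Atg4c with RvD1, the log2 ratio running from -1.36 in cluster 9 to -4.17 in cluster 7 of recipient cells, the latter resting on 1 UMI. In cluster 4 Atg4c stood at 58.9 CPM (vehicle donor, 369 cells) and 22.2 CPM (RvD1 donor, 169 cells). Among recipient cells of that cluster Atg4c stood at 59.0 CPM (vehicle, 946 cells) and 20.5 CPM (RvD1, only 72 cells). Without clusters 4 and 7 the Atg4c log2 ratios were -2.61 in donor and -2.14 in recipient neutrophils, and with the 7 clusters weighing the same they were -2.12 and -2.29.

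**Figure D1:**
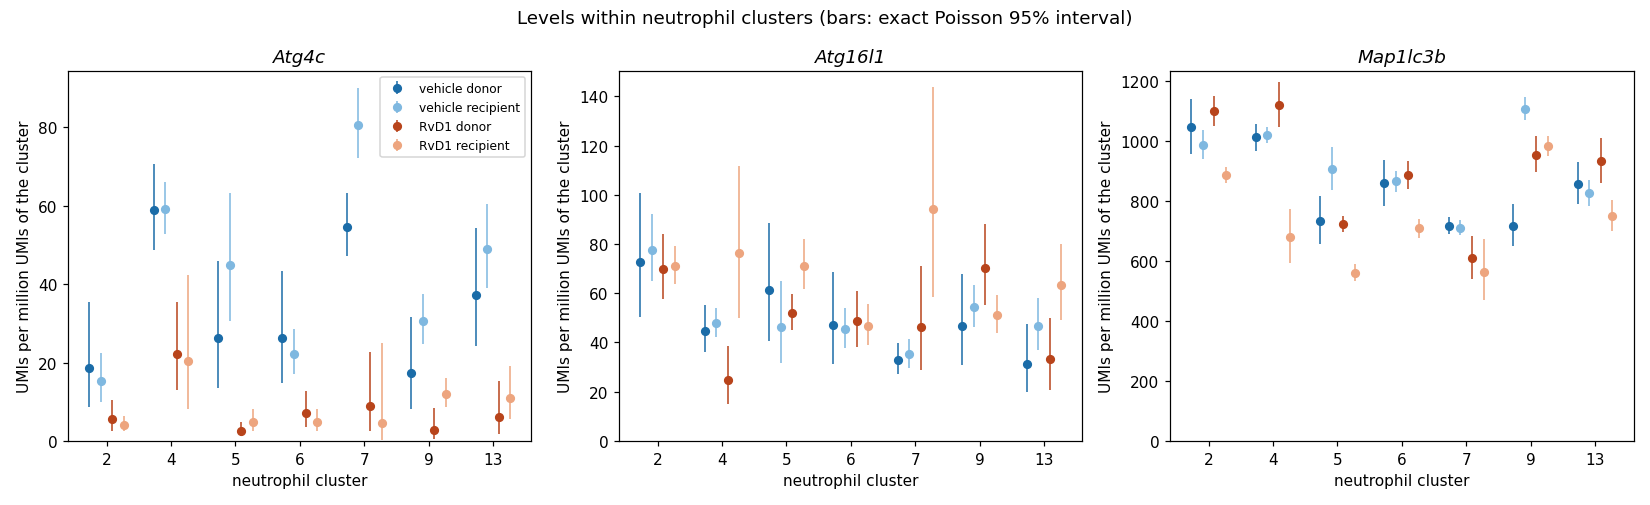
Levels of Atg4c, Atg16l1 and Map1lc3b (y axes, CPM) in the 7 neutrophil clusters (x axes), with points for the 4 libraries and bars for exact Poisson 95% intervals. Atg4c points of both RvD1 libraries lie below those of the vehicle library of the same origin in every cluster, and Atg16l1 shows no such shift.

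The Atg4c difference varied between myeloid classes. In classical monocytes Atg4c measured 36.5 CPM (vehicle donor), 22.1 CPM (RvD1 donor), 43.0 CPM (vehicle recipient) and 14.8 CPM (RvD1 recipient), 1.65-fold lower (1.39 to 1.97) with RvD1 among donor cells and 2.90-fold lower (2.00 to 4.28) among recipient cells. Both RvD1 libraries were again the lower ones. Atg4c was the single member of 8 described in both origins to be 1.5-fold lower there, beside 2.68% of 5377 genes, and 0 were higher beside 1.02%. The donor log2 ratio of -0.72 became -0.58, just under 1.5-fold, when the median of genes of like span was subtracted.

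In nonclassical monocytes Atg4c was 65.1 CPM in vehicle donor, 45.0 CPM in RvD1 donor, 53.8 CPM in vehicle recipient and 57.1 CPM in RvD1 recipient cells. The donor log2 ratio was -0.53 (-0.78 to -0.29), and the recipient ratio of 0.08 (-0.23 to 0.40) had an interval that includes 0. The RvD1 recipient level of the whole class thus lay above that of its vehicle library. Without nonclassical cluster 17, described with Atg7 below, the Atg4c log2 ratios were -0.38 in donor and -0.008 in recipient cells. In the whole class 0 of 9 members passed 1.5-fold in both origins (5.69% of genes lower, 2.32% higher). Neutrophils were also set against nonclassical monocytes, cluster 17 included, of the same library and software version. Their log2 ratio for Atg4c was -0.51 (-0.70 to -0.32) in vehicle donor and -0.15 (-0.40 to 0.11) in vehicle recipient cells. With RvD1 it was -2.95 (-3.41 to -2.52) for donor and -3.02 (-3.37 to -2.68) for recipient cells. Setting these RvD1 values against the vehicle values crosses software versions again. The change between them follows from the RvD1 to vehicle ratios of both classes given above and is not a separate observation.

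Alveolar macrophages of the vehicle donor library had 56.5 CPM of Atg4c, next below nonclassical monocytes and above neutrophils there. In lymphocytes Atg4c was scarce. B cells had 6.41 to 11.9 CPM, NK cells 3.11 to 6.0 CPM and T cells 0.57 to 2.44 CPM. None of these lymphocyte classes reached the minimum of 100 UMIs for a ratio. As a check on free RNA, Atg4c in B cells amounted to 16.6% to 187% of its neutrophil level, whereas the neutrophil transcript S100a8 in B cells amounted to 0.102% to 1.99%. In T cells Atg4c amounted to 1.60% to 11.2% and S100a8 to 0.134% to 0.724% of the neutrophil level, with 4 to 18 Atg4c UMIs per library.

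Atg4b, the other ATG4 protease among the members and the one with the broadest activity on LC3 proteins, did not share this pattern. Its neutrophil level was 15.02 CPM (vehicle donor), 18.2 CPM (RvD1 donor), 16.5 CPM (vehicle recipient) and 16.5 CPM (RvD1 recipient). The log2 ratios of RvD1 to vehicle were 0.28 (-0.06 to 0.62) and 0.00 (-0.24 to 0.25), so both intervals for Atg4b include 0. Atg4b was highest in NK or B cells in every library (36.8 to 45.3 CPM). In neutrophils it was the lowest or next to lowest of the classes with a level.

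**Figure D2:**
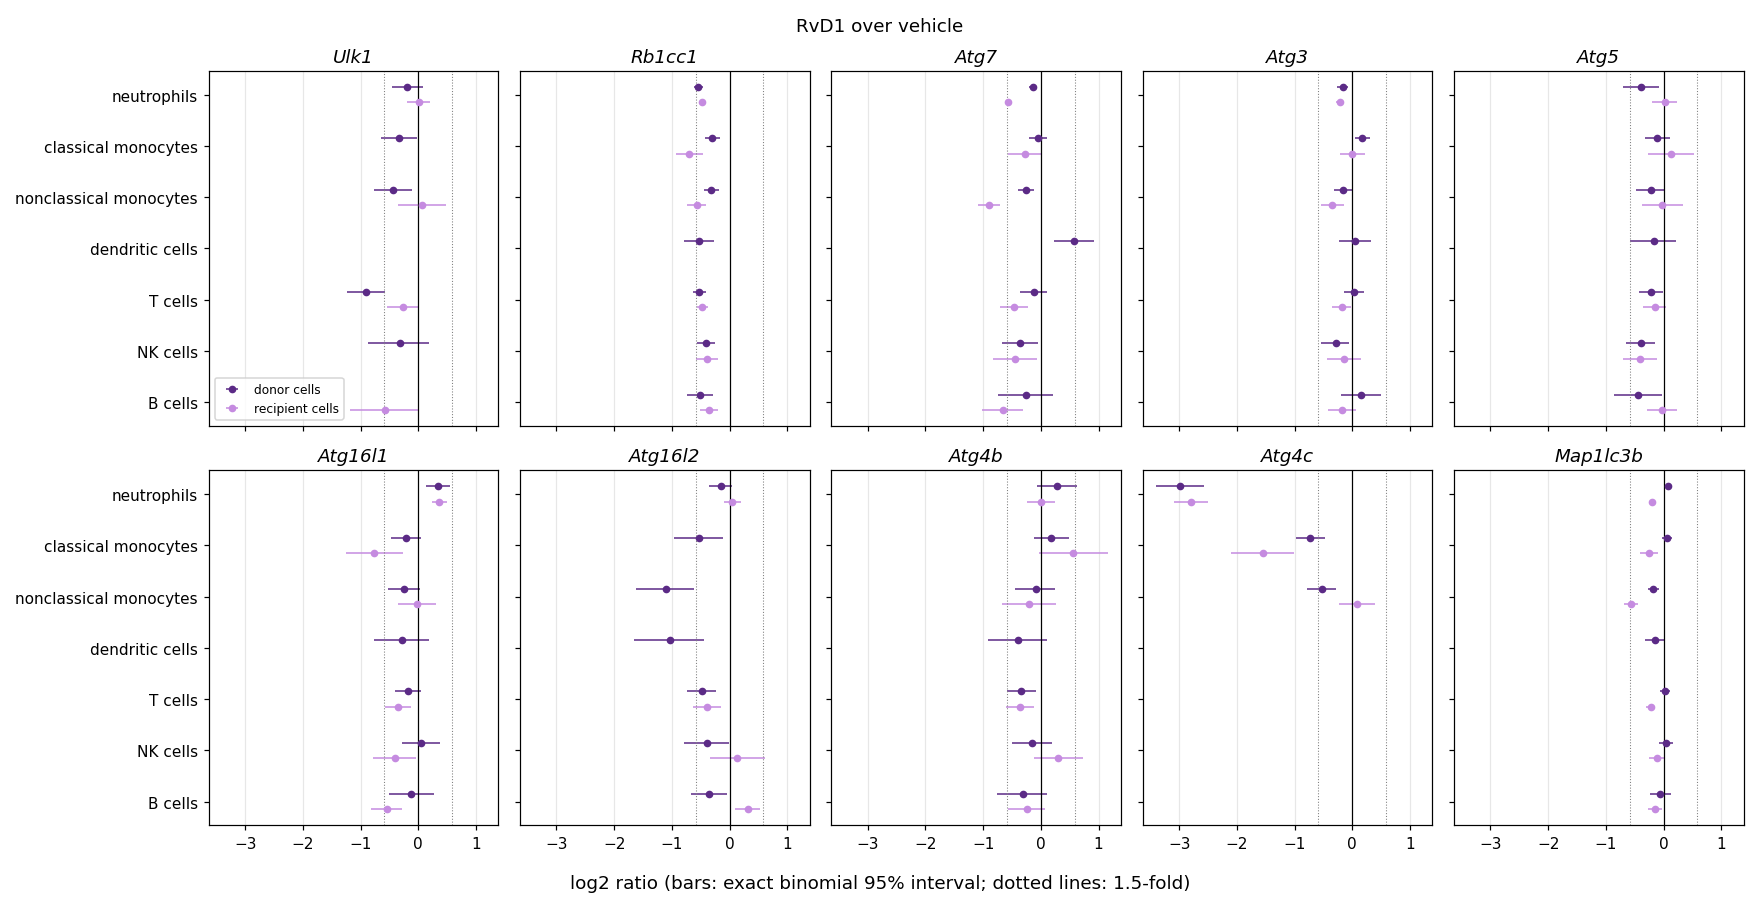
Log2 ratio of RvD1 to vehicle (x axes) for the 10 core autophagy genes in 7 classes (rows), with points for donor and recipient cells, bars for exact binomial 95% intervals and dotted lines at 1.5-fold. Atg4c in neutrophils lies near -3 in both origins, and all points of Rb1cc1 lie left of 0.

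Of the initiation genes, Rb1cc1, the scaffold of the ULK1 kinase complex, was lower with RvD1 in all 13 class and origin comparisons, and every interval lay below 0. These comparisons share the same 4 libraries and are not separate observations. The median log2 ratio of all genes ran from -0.20 in donor B cells to 0.12 in recipient neutrophils. The share of all genes lower in every comparison was not computed. In neutrophils Rb1cc1 measured 353 CPM in vehicle donor, 243 CPM in RvD1 donor, 292 CPM in vehicle recipient and 211 CPM in RvD1 recipient cells. The log2 ratios for Rb1cc1 were -0.54 (-0.62 to -0.46) and -0.47 (-0.54 to -0.41) there, and over all classes they ran from -0.69 in recipient to -0.30 in donor classical monocytes. Rb1cc1 was also lower in each of the 7 neutrophil clusters in both origins. It passed 1.5-fold in 1 of the 13, and in 0 classes in both origins. Ratios fell with gene span in these libraries: in donor B cells the median log2 ratio of all genes was 0.24 in the shortest of 10 bins of span and -0.41 in the longest, and in donor neutrophils 0.13 and -0.15. With the median of genes of like span subtracted, the 13 ratios for Rb1cc1 stayed below 0, from -0.13 to -0.58. Without nonclassical cluster 17, described with Atg7 below, the Rb1cc1 ratios of nonclassical monocytes shrank from -0.31 to -0.05 in donor and from -0.57 to -0.15 in recipient cells.

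Ulk1, the initiating kinase itself, held 23.9 to 27.8 CPM in neutrophils of the 4 libraries. Its log2 ratios were -0.19 (-0.45 to 0.08) in donor and 0.01 (-0.19 to 0.21) in recipient neutrophils. In T cells Ulk1 measured 29.1 CPM (vehicle donor), 15.6 CPM (RvD1 donor), 24.9 CPM (vehicle recipient) and 20.6 CPM (RvD1 recipient). The donor log2 ratio of Ulk1 in T cells was -0.90 (-1.23 to -0.58) and the recipient ratio -0.27 (-0.54 to 0.01), and the difference between them was not tested.

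Of the LC3 conjugation genes, Atg7, Atg3 and Map1lc3b had their highest level in neutrophils in every library. Atg16l1 had it there only in the RvD1 libraries, and Atg5 had its highest level in NK cells in every library. Atg7, the activating enzyme, measured 380 CPM in vehicle donor, 345 CPM in RvD1 donor, 378 CPM in vehicle recipient and 255 CPM in RvD1 recipient neutrophils, so that 1 library stood below the other 3. The Atg7 log2 ratio to vehicle was -0.14 (-0.21 to -0.07) in donor and -0.57 (-0.62 to -0.51) in recipient neutrophils. The donor direction turned to 0.01 with the span correction, 0.03 without clusters 4 and 7 and 0.17 with the 7 clusters weighing the same. In cluster 4 of donor cells Atg7 was higher with RvD1, at 679 against 420 CPM (log2 ratio 0.69, 0.53 to 0.85), and in cluster 4 of recipient cells lower, at 325 against 482 CPM (-0.57, -0.85 to -0.29). Over all classes the Atg7 ratio was below 0 in 12 of 13 comparisons, with 8 intervals below 0, and was 0.58 (0.23 to 0.92) in donor dendritic cells. The share of all genes that often below 0 was not computed. Of all pairs of member and class, 51 of 64 donor and 40 of 53 recipient ratios were below 0. In some alternative the Atg7 ratio turned positive in donor B (0.15) and T cells (0.22) and classical monocytes (0.05 donor, 0.10 recipient). Under every alternative it stayed below 0 in NK cells, recipient B cells, T cells and neutrophils, and donor nonclassical monocytes. In recipient nonclassical monocytes Atg7 was 208 CPM with vehicle and 112 CPM with RvD1, a log2 ratio of -0.90 (-1.08 to -0.71). That class consisted of clusters 11 and 17, and the latter carried more neutrophil transcripts and made up 97 of 201 vehicle recipient but 51 of 378 RvD1 recipient cells. Summed S100a8 in the class was 12432 CPM in vehicle recipient cells and 2387 to 3968 CPM in the other 3 libraries. In cluster 11 alone the Atg7 ratio was 0.11 (-0.24 to 0.48) and in cluster 17 alone -0.68 (-0.99 to -0.38), so the share of cluster 17 moved with the level of the whole class. Its part in the ratio was not tested further.

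Atg3, the enzyme that carries LC3 to its lipid, measured 201 CPM (vehicle donor), 179 CPM (RvD1 donor), 247 CPM (vehicle recipient) and 214 CPM (RvD1 recipient) in neutrophils. Its log2 ratios to vehicle were -0.17 (-0.26 to -0.07) and -0.21 (-0.27 to -0.14). Recipient neutrophils exceeded donor neutrophils with either treatment, and over all classes Atg3 ratios to vehicle lay between -0.34 and 0.18. The lowest, in recipient nonclassical monocytes, turned to 0.18 without cluster 17.

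Atg5, which joins ATG12 in the complex that places LC3, was low in neutrophils at 17.2 to 22.5 CPM and highest in NK cells, at 66.2 to 89.6 CPM. The Atg5 log2 ratio of NK cells was -0.40 (-0.66 to -0.14) for the donor and -0.41 (-0.71 to -0.12) for the recipient. In neutrophils the Atg5 ratios were -0.39 (-0.70 to -0.08) and 0.02 (-0.19 to 0.23), the latter with an interval that includes 0.

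Atg16l1, which anchors that complex at the membrane, went the other way from Atg4c in neutrophils. It measured 41.6 CPM in vehicle donor, 52.8 CPM in RvD1 donor, 48.3 CPM in vehicle recipient and 62.1 CPM in RvD1 recipient neutrophils. The log2 ratios for Atg16l1 were 0.34 (0.14 to 0.54) and 0.36 (0.23 to 0.50), under 1.5-fold. With the 7 clusters weighing the same, the donor ratio of Atg16l1 was 0.04. The Atg16l1 ratio was -0.76 (-1.26 to -0.27) in recipient classical monocytes, where it measured 36.8 CPM with vehicle and 21.7 CPM with RvD1, and -0.55 (-0.83 to -0.27) in recipient B cells.

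Atg16l2, a paralog of Atg16l1 with a less settled part in autophagy, was highest in B cells in every library, at 62.4 to 82.6 CPM. It was lowest in classical monocytes, at 5.79 to 12.2 CPM. Its neutrophil level of 44.1 to 49.1 CPM differed little between libraries. In donor nonclassical monocytes Atg16l2 measured 22.8 CPM with vehicle and 10.6 CPM with RvD1 (log2 ratio -1.10, -1.61 to -0.62), and in donor dendritic cells the ratio was -1.03 (-1.65 to -0.45). Without the nonclassical cluster that carried more neutrophil transcripts, Atg16l2 had no ratio in donor nonclassical monocytes. The part of that cluster in the donor difference was therefore not tested. Recipient nonclassical monocytes had 50 UMIs with vehicle and 28 with RvD1, under the minimum for a ratio. In recipient B cells Atg16l2 was higher with RvD1, at 0.31 (0.09 to 0.54), and in donor B cells lower, at -0.35 (-0.68 to -0.04).

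Map1lc3b, whose product LC3 marks autophagosome membranes, measured 832 CPM (vehicle donor), 873 CPM (RvD1 donor), 922 CPM (vehicle recipient) and 800 CPM (RvD1 recipient) in neutrophils. In other compared classes it stayed at 179 to 443 CPM. The Map1lc3b log2 ratio to vehicle was 0.07 (0.02 to 0.12) in donor and -0.21 (-0.24 to -0.17) in recipient neutrophils. Its largest difference was -0.57 (-0.69 to -0.45) in recipient nonclassical monocytes, the class whose neutrophil transcripts also differed. It was -0.13 without cluster 17.

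**Figure D3:**
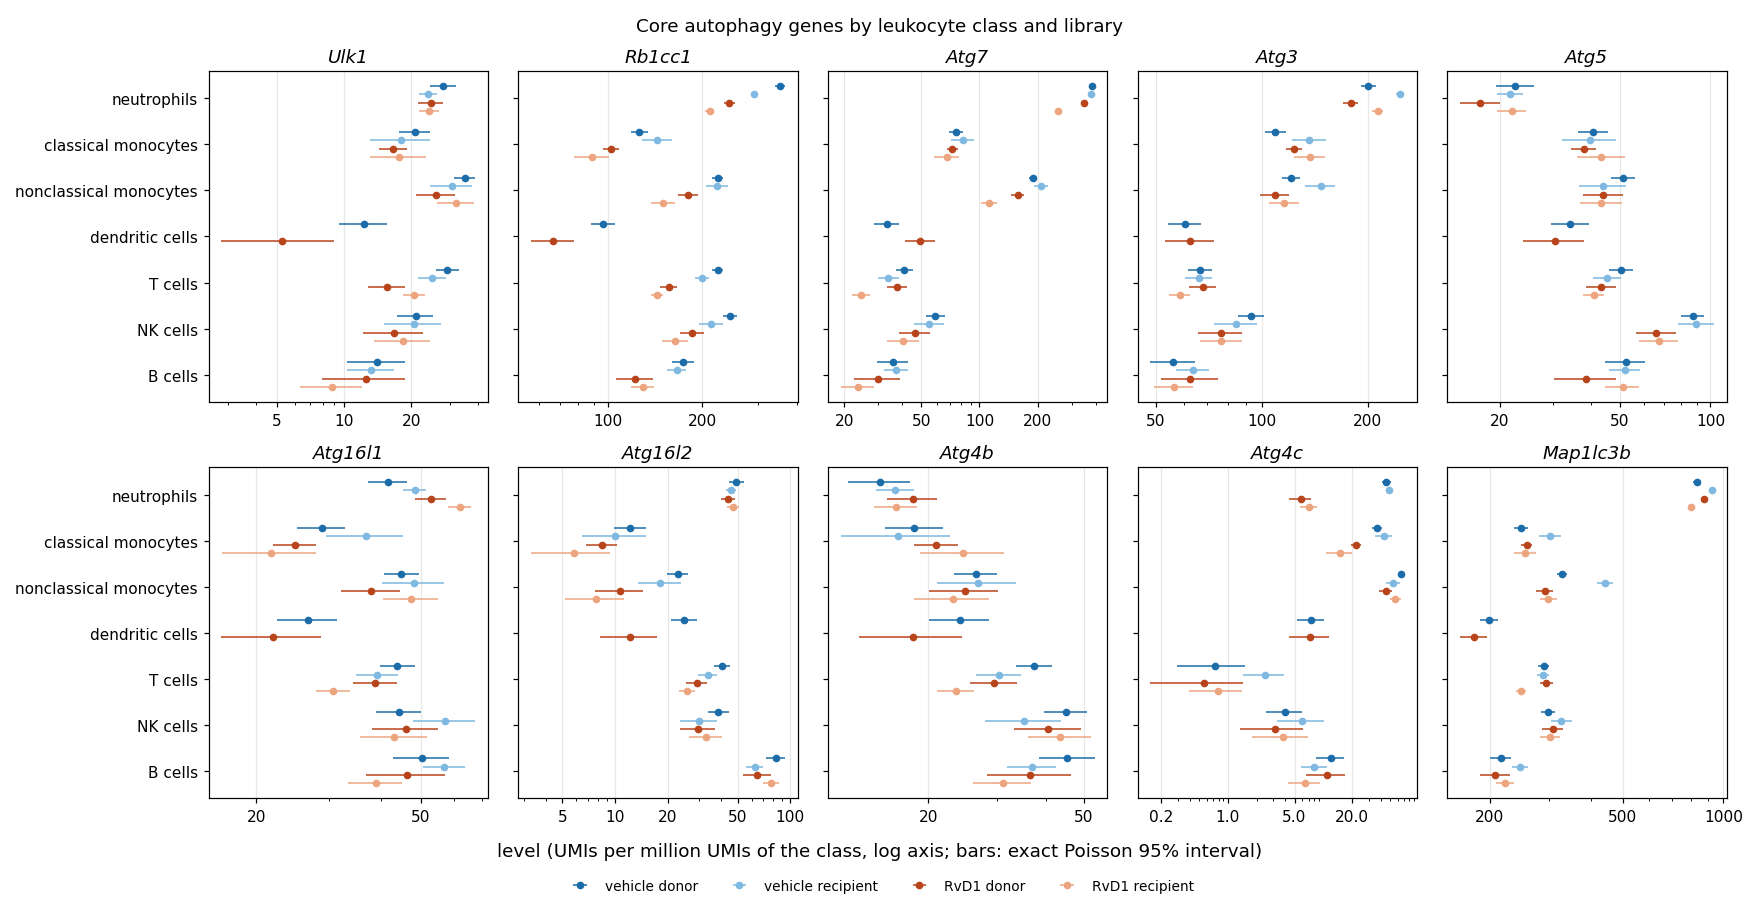
Levels of the 10 core autophagy genes (x axes, CPM, log scale) in 7 classes (rows), with points for the 4 libraries and bars for exact Poisson 95% intervals. Neutrophils lie highest for Map1lc3b, Atg7, Atg3 and Rb1cc1, NK cells for Atg5 and B cells for Atg16l2.

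By CPM over all UMIs of a class, several members had the same highest class in every library. Neutrophils had the highest level of Atg3, Atg7, Rb1cc1 and Map1lc3b in all 4 libraries, NK cells that of Atg5, B cells that of Atg16l2 and nonclassical monocytes that of Atg4c. For Atg3, nonclassical and classical monocytes came next in either order, and B and T cells lay near the lower end with overlapping intervals. Summed over the 10 members, neutrophils reached 1967 CPM (vehicle donor), 1803 CPM (RvD1 donor), 2044 CPM (vehicle recipient) and 1658 CPM (RvD1 recipient). The lowest class of each library had 453 to 740 CPM. In vehicle donor neutrophils Map1lc3b (832 CPM), Atg7 (380 CPM), Rb1cc1 (353 CPM) and Atg3 (201 CPM) made up most of the sum. The sum therefore repeats the pattern of these members, and Atg4b and Atg5 were low in neutrophils. Ribosomal protein genes took 2.14% to 2.36% of neutrophil UMIs against 13.9% to 35.8% in lymphocytes, which lowers every other gene's CPM in lymphocytes. In recipient T cells they took 34.0% with vehicle and 35.8% with RvD1, and mitochondrial genes took 3.78% and 3.93%. With these UMIs left out, Rb1cc1 would lie higher in those T cells than in neutrophils of the same library. The place of neutrophils for Rb1cc1 therefore depends on the scaling.

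Taking each origin alone, 5 of 64 pairs of member and class were at least 1.5-fold lower with RvD1 in donor cells and 6 of 53 in recipient cells. The donor pairs were Atg4c in neutrophils (where 15.2% of genes were that much lower) and in classical monocytes (8.98%), Atg16l2 in nonclassical monocytes (12.1%) and dendritic cells (10.1%), and Ulk1 in T cells (9.51%). In the 7 classes compared in donor cells, 7.97% to 16.1% of genes were that much lower. The donor pair of Atg16l2 and nonclassical monocytes had no ratio without cluster 17. The recipient pairs were Atg4c in neutrophils (12.7%), Atg4c, Atg16l1 and Rb1cc1 in classical monocytes (8.76%), and Atg7 in nonclassical monocytes (11.4%) and B cells (3.98%). In the 6 classes compared in recipient cells the share of genes ran from 3.98% to 12.7%. Of the recipient calls, 4 fell short of 1.5-fold in an alternative. Atg16l1 in classical monocytes was -0.50 with every cell weighing the same, Rb1cc1 there was -0.55 with the span correction, and Atg7 in B cells was -0.19 with doublets kept and in nonclassical monocytes 0.11 without cluster 17. In either origin 0 pairs were 1.5-fold higher, beside 3.72% to 10.6% of genes in donor and 2.38% to 12.2% in recipient classes. In T, NK and B cells 0 members passed in both origins, beside 1.98%, 1.39% and 1.04% of genes lower and 1.1%, 0.867% and 0.592% higher.

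Recipient and donor cells of 1 treatment were compared by the same rule. In neutrophils 0 of 10 members passed 1.5-fold in the same direction with both treatments. Beside this, 3.6% of 6842 genes were lower and 1.34% higher in recipient cells, so a count of 0 in 10 is near the background. Atg3 was higher in recipient neutrophils by 0.30 (log2) with vehicle and 0.26 with RvD1, and Rb1cc1 was lower by 0.27 and 0.21. Map1lc3b went opposite ways: recipient cells had more in the vehicle libraries, at 0.15 (0.11 to 0.19), but less in the RvD1 libraries, at -0.13 (-0.17 to -0.09). The Atg7 ratio with vehicle had an interval that includes 0, at -0.01 (-0.07 to 0.06), and was -0.43 (-0.50 to -0.37) with RvD1. These contrasts and those of RvD1 to vehicle share the same 4 libraries. In the other classes 0 members passed with both treatments either. Among genes lower in recipient cells the shares were 11.7% in T cells, 0.643% in B cells, 0.0798% in NK cells, 0.767% in classical and 0.401% in nonclassical monocytes. Among genes higher they were 1.33%, 0.138%, 0%, 0.398% and 0.0743% in the same order. With RvD1 alone 1 of 54 pairs passed 1.5-fold, Atg7 in T cells at -0.61 (-0.85 to -0.37), where 17.5% of genes were that much lower. That call fell to -0.41 with the span correction and to -0.43 with either of 2 other scalings. With vehicle alone 0 of 57 pairs were lower, beside 3.56% to 17.6% of genes over the 6 classes. Endothelial cells, which are not leukocytes, were left out of all counts of pairs.

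**Figure D4:**
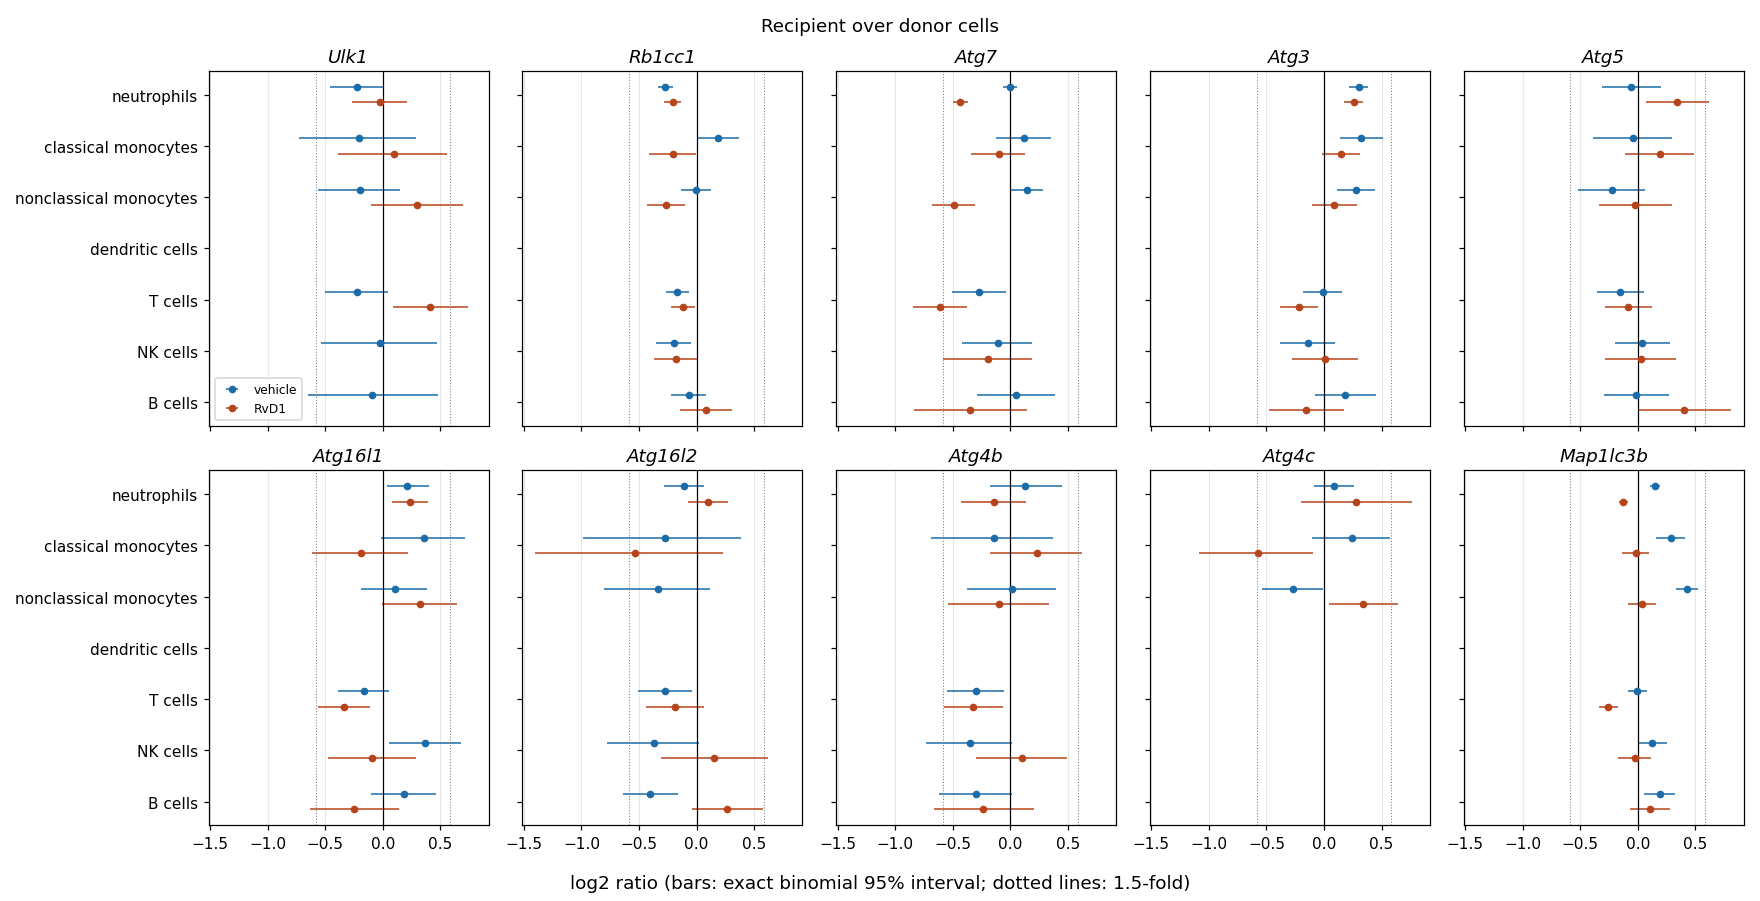
Log2 ratio of recipient to donor cells (x axes) for the 10 core autophagy genes in the compared classes (rows), with points for vehicle and RvD1, bars for exact binomial 95% intervals and dotted lines at 1.5-fold. Most points lie inside the dotted lines, and the dendritic cell rows are empty because recipient libraries held too few of those cells.

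A list of 45 other autophagy genes gave the surroundings of the members. In neutrophils 37 of them were described in both origins, of which 4 were at least 1.5-fold lower and 1 higher with RvD1, near the shares of all genes (9.34% and 4.87%). The median log2 ratio of the list was 0.04 in donor and 0.16 in recipient neutrophils, beside 0.02 and 0.12 over all genes. Uvrag, a subunit of the PI3-kinase complex that acts on late steps, measured 812 CPM (vehicle donor), 294 CPM (RvD1 donor), 653 CPM (vehicle recipient) and 284 CPM (RvD1 recipient). The log2 ratio was -1.47 (-1.53 to -1.40) for donor cells and -1.20 (-1.25 to -1.15) for recipient cells. Uvrag was also 1.5-fold lower in classical monocytes of both origins, at -0.87 and -0.94, and its ratios in nonclassical monocytes were -0.69 and -0.57.

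Nbr1, a cargo receptor for ubiquitinated proteins, stood at -1.49 (-1.67 to -1.33) among donor neutrophils and at -1.09 (-1.24 to -0.95) among recipient neutrophils. Tecpr1, which binds conjugation factors at lysosomal membranes, had ratios of -0.75 and -1.01, and Gabarapl1, a relative of LC3, -0.66 and -1.19. Wdr45b, a binder of the lipid PI3P, was the higher one, at 0.60 and 0.68. In other classes Plekhm1 was lower in NK cells (-1.10 and -0.59), Tollip was lower in T cells (-0.67 and -0.70), and in nonclassical monocytes Atg4d was higher (0.66 and 0.94) and Rab7 lower (-0.70 and -1.41).

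Between origins, 41 genes of the list were described in neutrophils with both treatments, and 3 were lower and 1 higher in recipient cells by 1.5-fold, beside 3.6% and 1.34% of all genes. Sqstm1, the cargo receptor p62, measured 543 CPM in vehicle donor and 300 CPM in vehicle recipient cells, and 492 CPM in RvD1 donor and 220 CPM in RvD1 recipient cells. Its log2 ratios of recipient to donor were -0.86 (-0.91 to -0.80) and -1.16 (-1.22 to -1.09). Tecpr1 (-1.39 and -1.65) and Gabarapl1 (-0.67 and -1.19) were the other 2, and Atg10, an enzyme that joins ATG12 to ATG5, was higher (0.63 and 0.76). Gabarapl1 was also lower in recipient T cells, by -1.13 (log2) in the vehicle and -0.94 in the RvD1 libraries. It was 1 of 42 list genes described there, beside 11.7% of all genes.

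**Figure D5:**
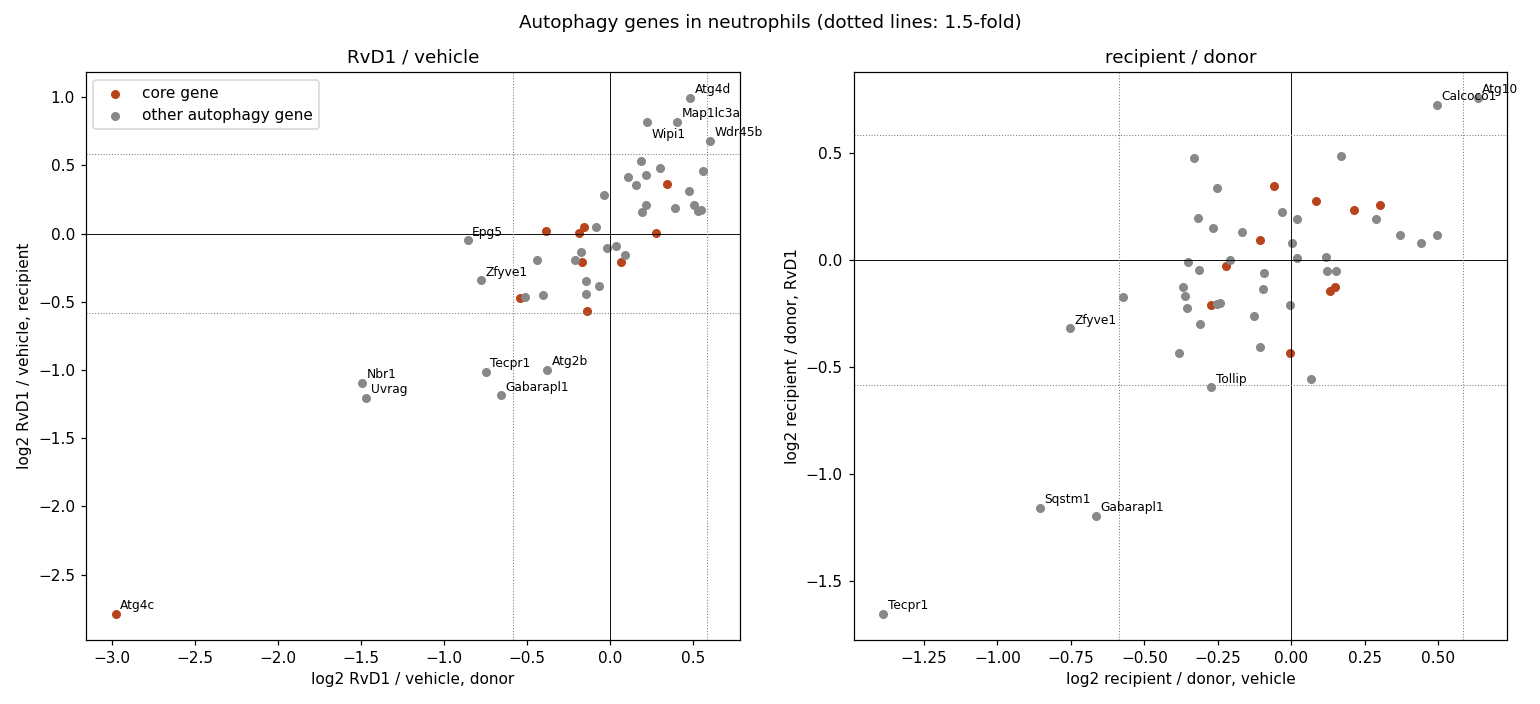
Autophagy genes in neutrophils, with the log2 ratio in 1 contrast on the x axis and in its partner contrast on the y axis (left, RvD1 to vehicle in donor and recipient cells; right, recipient to donor cells with vehicle and RvD1). Atg4c stands apart at -2.98 and -2.79, and Uvrag and Nbr1 follow below -1 on both axes.

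Likeness of pattern was measured as Pearson's r of log2(CPM + 1) over 29 sums of a class in a library, among 8996 genes. The points share libraries, depth and ribosomal share, so r is a description. Atg3 was most alike to Slc35a5 (r = 0.952), a gene for a sugar-nucleotide transporter family member that lies head to head with it. Ndel1 (r = 0.949) and Pygl (r = 0.948) were almost as alike to Atg3. Slc35a5 was also alike to Atg7 (r = 0.947), which lies on another chromosome, so its likeness is not particular to Atg3. Whether the shared start region has a part in the likeness was not tested. Slc35a5 (chr16:45139573-45158706, - strand) starts 79 bases before the annotated start of Atg3, and the Atg3 window printed above, with both its CACGTG motifs, covers that start as well. Atg7 was most alike to Nab1 (r = 0.947), Atg4c to Sh3bp2 (r = 0.912), Map1lc3b to Slc27a4 (r = 0.9505), Rb1cc1 to Ube2b (r = 0.931) and Atg5 to Kcnab2 (r = 0.922). Among the members, Atg3 and Atg7 were the pair most alike (r = 0.926), and Atg4c and Atg4b had r = -0.41.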

How the data were processed

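Single-cell libraries of sorted leukocytes were made with a 3' kit (10x Genomics, v3), per the labels' protocols. For every barcode the authors deposited unnormalized UMI counts by gene, written by Cell Ranger (version in the report), per the file headers. The submitters' processing notes name the build mm10 and Seurat 4.0.0. The sources used here do not say whether introns were counted or doublets removed beforehand.

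Barcodes under 200 genes or over 10% mitochondrial UMIs were dropped, and doublets called per library by Scrublet (scanpy 1.11.5) were removed. The libraries were clustered together without integration (30 components, 15 neighbours, Leiden resolution 1), leaving the members and the autophagy list out of the variable genes. Clusters were named from 23 marker sets by a rule whose details were settled after the clusters were seen. CPM came from the summed UMIs of a class in a library. A class needed 100 cells in both libraries, a gene 100 UMIs over both and a level 50 cells. Ratios carry exact binomial and levels exact Poisson 95% intervals, and the calculation was tested on simulated data. All 10 members are named, with up to 2 list genes per role and pair of contrasts, those of largest mean log2 ratio past 1.5-fold in both, and the genes most alike to each member (3 considered, among genes with at least 1000 UMIs). Members, lists and markers were chosen with earlier results of these data known. The alternatives were other UMI minimums, scalings, cell filters and clusterings, a correction for gene span (10 bins) and single cells or barcodes left out; 4 were added after seeing the data, on neutrophil clusters 4 and 7, equal cluster weights, cluster 17 and ratios within a library.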

Additional observations from a re-analysis of the deposited data

How the results depend on the processing

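No paired analysis was possible because each group has 1 library and no replicate number, and for the same reason no library could be left out. Of the values that answer a comparison, 452 recomputed values stayed (within the median counting interval of the members, or within 1.5 times for a count) and 5 moved further. The median log2 ratio of the members in T cells, recipient to donor with vehicle, was -0.17. It became 0.08428 with CPM taken without mitochondrial, ribosomal protein and haemoglobin genes, 0.05484 with the median of all genes set to 0 and 0.08241 with the median of genes of like span subtracted. That in recipient neutrophils, RvD1 to vehicle, was -0.10 and became -0.2546 with the span correction and -0.2697 without clusters 4 and 7. The sign of the Atg7 ratio in recipient nonclassical monocytes reversed to 0.1141 without cluster 17. The cause was not tested. Of the other values 3747 stayed, 143 moved and 1, a call of at least 1.5-fold, changed direction. Of the 228 log2 ratios of a member in a class, 70 had the other sign in at least 1 alternative. Apart from that call, these were ratios of at most 0.35 in size, among them Atg7 in donor neutrophils.

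The count of members lower with RvD1 in neutrophils of both origins was 1 under every alternative run. The count of all genes lower, 608, became 256 at 2-fold, 1584 with no UMI minimum, 285 without clusters 4 and 7 and 304 with equal cluster weights, and that of genes higher, 317, became 31, 1030, 177 and 205, and 207 at 200 UMIs. Of genes lower in recipient neutrophils with both treatments, 246 became 1397 with no minimum, 38 at 2-fold, 150 with the median set to 0, 156 with the span correction and 129 without clusters 4 and 7. Of those higher, 92 became 368, 9, 153, 155 and 52, and 40 with equal weights. In nonclassical monocytes the count of members lower with RvD1 rose from 0 to 1 at 50 UMIs and with no minimum. In classical monocytes the member count of 1 became 0 at 2-fold, at 200 UMIs and with the span correction. Dendritic cells could not be compared with at least 500 genes per cell or with each library clustered alone. Depth limits Atg4c in lymphocytes, at 4 to 42 UMIs per class and library.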
